A study of Mus musculus with 37 samples.

Results

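The 9 genes Tfap2a, Tfap2b, Foxd3, Sox10, Ednra, Ednrb, Edn1, Dlx5 and Dlx6 belong to the neural crest and to endothelin signalling, and they were taken by symbol from a count table of 25239 genes. All 9 had a row. Of these, 5 passed a filter on low counts that kept 15046 genes (Edn1, Ednra, Ednrb, Sox10 and Tfap2a), and 4 lay below it (Dlx5, Dlx6, Tfap2b and Foxd3). The data are 37 paired-end RNA-seq libraries of whole-tissue RNA from mouse hearts at E10.5. Fathers carried Stra8-iCre and Nipbl Flox/+, so that their sperm held either Nipbl Flox, which works as a wild-type allele, or Nipbl FIN, a null allele, and mothers were Isl1 Cre/+, with Cre in 1 Isl1 allele that leaves them haploinsufficient. The 4 genotypes were Nipbl +/+; Isl1 +/+ (wild-type, n = 10), Isl1 +/- (n = 9), Nipbl +/- (n = 9) and Nipbl +/-; Isl1 +/- (double heterozygous, n = 9). Every Isl1 +/- and double heterozygous embryo thus also carries the Cre allele, so that Cre and loss of an Isl1 allele cannot be told apart. The labels do not give, library by library, whether the working Nipbl allele was Flox, and an Isl1 +/- embryo with a Flox allele also carries Cre. Whether Cre altered that allele in Isl1-expressing cells was not tested. In whole hearts, Nipbl differed by a log2 change of 0.03 between Isl1 +/- and wild-type (95% confidence interval -0.19 to 0.25). Each library carries a number of its own within its set, which the labels do not spell out, and they do not state whether a library holds 1 heart or several, so p-values measure the spread between libraries.

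The neural crest is an embryonic population that leaves the dorsal neural tube and migrates into the pharyngeal arches and the outflow tract of the heart, where it helps to divide the aorta from the pulmonary artery. Tfap2a, Tfap2b, Foxd3 and Sox10 are transcription factors of early and migrating crest cells. Endothelin-1, encoded by Edn1, is cut to its active form by the convertase Ece1 and signals through the receptor Ednra on crest cells of the arches, which turn on Dlx5, Dlx6 and Hand2. Ednrb is the second endothelin receptor and is known for melanocytes and enteric nerves.

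Libraries held 23356831 to 50974736 counts, with a median of 36239721. Levels are given as CPM, the count scaled to a common library size after TMM scaling, and fold changes come from a fit that holds the set number of the labels as a factor. Nipbl itself was 60.0 ± 10.1 CPM (SD, n = 10) in wild-type and 39.3 ± 13.8 CPM (SD, n = 9) in Nipbl +/- libraries. The library labelled Nipbl +/- replicate 2 had 72.4 CPM of Nipbl, against its label, and lay far from all others on the first principal component, at 114 against at most 40.2 in size for any other. Isl1 averaged over the Nipbl genotypes was lower by a log2 change of -0.33 ± 0.13 (SE), which did not pass the test (adjusted p = 0.321), and in Nipbl +/- hearts it rose by 0.79 against wild-type (adjusted p = 0.0252). Set 7 held only double heterozygous replicate 2, so fitted values of that genotype rest on 8 libraries. Summed levels of 8 cardiomyocyte markers were 20303 to 30770 CPM, so each library carried heart muscle transcripts.

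The sequences upstream of the ligands Edn1 and Edn2 and of the receptor Ednrb are shown because Edn2 passed the test below and Edn1 did not, and because a TFAP2 motif lies before Edn2 and Ednrb. Each is the 250 bases before the annotated start, from RefSeq (GRCm38.p6), with any TFAP2 motif in capitals. Edn1 is read from chr13:42301226-42301475 on the plus strand, Edn2 from chr4:120160956-120161205 on the plus strand, and Ednrb from chr14:103843702-103843951 on the minus strand. The Ednrb window precedes the start of its shorter transcripts and lies in the first intron of a longer GENCODE transcript, so it falls inside the gene span given further on.
Edn1: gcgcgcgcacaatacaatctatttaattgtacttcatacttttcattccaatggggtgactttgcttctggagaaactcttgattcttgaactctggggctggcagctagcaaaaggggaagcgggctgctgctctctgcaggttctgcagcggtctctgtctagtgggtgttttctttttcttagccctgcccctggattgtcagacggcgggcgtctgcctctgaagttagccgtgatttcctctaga
Edn2: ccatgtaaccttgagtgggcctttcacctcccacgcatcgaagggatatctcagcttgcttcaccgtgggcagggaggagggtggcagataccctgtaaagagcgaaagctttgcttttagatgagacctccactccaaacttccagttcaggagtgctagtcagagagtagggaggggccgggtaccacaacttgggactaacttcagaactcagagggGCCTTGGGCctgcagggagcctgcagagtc
Ednrb: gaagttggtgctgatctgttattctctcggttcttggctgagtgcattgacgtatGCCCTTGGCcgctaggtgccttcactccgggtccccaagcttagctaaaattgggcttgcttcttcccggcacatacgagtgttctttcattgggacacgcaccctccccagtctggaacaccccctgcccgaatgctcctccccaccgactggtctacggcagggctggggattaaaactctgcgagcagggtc

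The motif GCCNNNGGC, bound by TFAP2 factors, reads the same on both strands and was present in 13.7% of 32851 promoter windows of this length. It was found at -30 to -22 before Edn2 and at -195 to -187 before Ednrb, and was not found before Edn1, Ednra, Foxd3, Tfap2b or Tfap2a. The SOX motif ACAAAG (16.5% of windows), searched on both strands, matched none of these windows. Nor did the motif of GATA factors, which reads AGATAA (9.99% of windows). The homeobox motif TAATTA (4.84% of windows) matched only the first of 2 Tfap2a promoters, at -32 to -27. Of the 9 genes, 6 had a promoter entry. A match of letters is a description and says nothing of binding.

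Per length, the levels of the 9 genes in wild-type hearts spanned a wide range. On a scale of CPM per kilobase of merged exons, Ednrb was at 13.2, Ednra at 7.96 and Edn1 at 5.11, whereas Sox10 was at 0.28 and Tfap2a at 0.12. Dlx5 and Dlx6 followed at 0.049 and 0.048, and Tfap2b and Foxd3 were lowest at 0.0092 and 0.0038. The SD over the 10 wild-type libraries was 3.32 for Ednrb, 1.07 for Ednra and 0.61 for Edn1, and that of Dlx5, 0.033, was larger than its gap to Dlx6. The receptors and Edn1 thus stood well above the crest transcription factors. In bulk tissue, fewer cells of a type and less RNA per cell cannot be told apart.

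None of the 5 tested genes differed between genotypes past an adjusted p of 0.05 in any of 8 comparisons. The share of all 15046 genes past that threshold was 0% for Isl1 +/- against wild-type, 1.71% for Nipbl +/- against wild-type, 2.6% for double heterozygous against wild-type, 0.957% for double heterozygous against Isl1 +/-, 0% for double heterozygous against Nipbl +/-, 0% for the interaction, 4.02% for the Nipbl effect averaged over Isl1 genotypes and 0.173% for the Isl1 effect averaged over Nipbl genotypes. At these shares, 5 genes would give few calls in any case. The shares at an unadjusted p under 0.05 were, in the same order, 5.89%, 15.1%, 11.6%, 7.49%, 9.01%, 2.73%, 14.9% and 12.2%. Of the 40 tests of the 5 genes, 4 had an unadjusted p under 0.05 in edgeR, and the smallest adjusted p was 0.187. DESeq2 gave 0 calls in the same 40 tests, with 5 unadjusted. The shares of all genes past the adjusted threshold depended on Nipbl +/- replicate 2. Without it, genes past the threshold went from 258 to 410 for Nipbl +/- and from 391 to 839 for double heterozygous against wild-type. They went from 144 to 361 between double heterozygous and Isl1 +/-, and from 605 to 1044 for the averaged Nipbl effect. The sizes of the changes were small for the receptors and Edn1, and their intervals are given gene by gene.

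**Figure D1:**
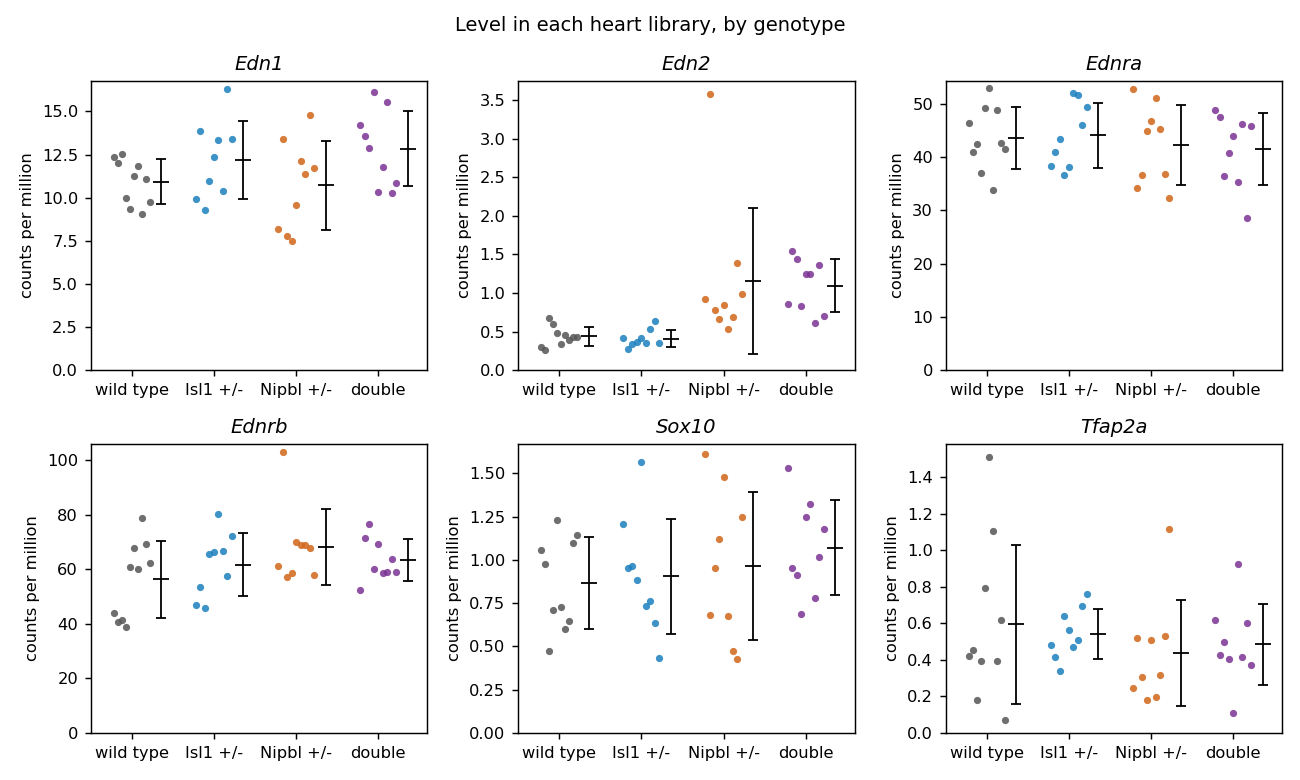
Level of Edn1, Edn2, Ednra, Ednrb, Sox10 and Tfap2a in CPM (vertical axes, linear, from 0) in each library, by genotype; points are libraries and the black marks give the mean ± SD. Edn2 is between 0.26 and 0.68 CPM in wild-type hearts and between 0.54 and 1.39 CPM in Nipbl +/- hearts apart from 3.58 CPM in the library labelled Nipbl +/- replicate 2, while the ranges of the other genes overlap broadly between genotypes.

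Edn1, the ligand of the arch and endothelial signal, lies on chr13:42301476-42307990 (GRCm38, plus strand). It was measured with 236 to 707 counts per library. Its lowest, median and highest levels were 9.08, 11.2 and 12.5 CPM in wild-type hearts. In Isl1 +/- hearts they were 9.27, 12.3 and 16.3 CPM, and 4 of 9 libraries lay above every wild-type library. In Nipbl +/- hearts they were 7.48, 11.4 and 14.8 CPM, with 2 libraries above and 3 below all wild-type libraries. In double heterozygous hearts they were 10.3, 12.9 and 16.1 CPM, with 5 of 9 above every wild-type library. Edn1 was therefore most even in wild-type hearts, where the SD was 1.29 CPM against 2.19 to 2.59 CPM in the other genotypes, and the ranges of all 4 genotypes overlapped.

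The fitted log2 change of Edn1 was 0.17 ± 0.12 (SE) in Isl1 +/- (adjusted p = 0.853), -0.05 ± 0.13 in Nipbl +/- (adjusted p = 0.874) and 0.24 ± 0.14 in double heterozygous hearts (adjusted p = 0.527), each against wild-type. Averaged over the Nipbl genotypes, the change with Isl1 loss was 0.23 (95% confidence interval 0.05 to 0.42, adjusted p = 0.301). Between double heterozygous and Nipbl +/- hearts it was 0.30 (95% confidence interval 0.03 to 0.56, adjusted p = 0.521). Both intervals leave out 0, and neither change passed the adjustment over all genes. Within sets, the double heterozygous mean was above the wild-type mean by log2 0.02 in set 2, 0.39 in set 5 and 0.62 in set 6, the last with a single double heterozygous library. The Isl1 +/- mean differed from wild-type by -0.18 in set 1, 0.10 in set 2, 0.44 in set 5 and 0.40 in set 6, so its sign was not the same in every set.

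Edn2, which encodes a second ligand of the same receptors, was the gene of the endothelin machinery whose level changed. It lies on chr4:120161206-120167360 (GRCm38, plus strand) and is a low gene. Its raw counts in wild-type libraries were 8 to 23, with a median of 13.5, and in Isl1 +/- libraries they were 9 to 22. Counts in Nipbl +/- libraries were 26 to 42, apart from 131 in the library labelled Nipbl +/- replicate 2, with a median of 33 over all 9, and those in double heterozygous libraries were 21 to 57, with a median of 36. The lowest, median and highest levels were 0.26, 0.43 and 0.68 CPM in wild-type, 0.27, 0.37 and 0.64 CPM in Isl1 +/-, 0.54, 0.84 and 3.58 CPM in Nipbl +/- and 0.61, 1.25 and 1.54 CPM in double heterozygous hearts. All 9 Nipbl +/- and all 9 double heterozygous libraries were above the wild-type mean of 0.44 ± 0.13 CPM, and 7 of 9 Nipbl +/- and 8 of 9 double heterozygous libraries were above every wild-type library.

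Edn2 rose in Nipbl +/- against wild-type hearts by a log2 change of 1.29 ± 0.29 (SE), a 2.45-fold change (adjusted p = 0.0120). In double heterozygous hearts it rose by 1.05 ± 0.29 against wild-type (adjusted p = 0.0441) and by 1.22 ± 0.30 against Isl1 +/- (adjusted p = 0.0346). The Nipbl effect averaged over Isl1 genotypes was 1.26 ± 0.22, a 2.39-fold change (adjusted p = 4.29e-04). Loss of Isl1 alone gave -0.16 (95% confidence interval -0.74 to 0.41, adjusted p = 0.934), and the interaction was -0.08 (95% confidence interval -0.87 to 0.72). Without Nipbl +/- replicate 2, the change of Edn2 in Nipbl +/- hearts was 0.92 (adjusted p = 0.0152) and the averaged effect was 1.09 (adjusted p = 3.84e-05). The averaged effect passed the threshold under all 37 leave-outs of a library. The call in Nipbl +/- hearts was lost without set 2, 5 or 6, with Edn2 at 1.32, 1.13 and 1.31 (adjusted p = 0.159, 0.0587 and 0.0558).

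The separate calls of Edn2 in double heterozygous hearts depended on the libraries used. Against wild-type, 13 of 37 leave-outs kept the adjusted p of Edn2 below 0.05, and the log2 change stayed between 0.94 and 1.13. Leaving out any of wild-type replicates 1, 2 and 4 to 10, Isl1 +/- replicates 1, 3 to 7 and 9, Nipbl +/- replicates 1 and 5, or double heterozygous replicates 3 to 8 gave adjusted p-values of 0.0511 to 0.115. Against Isl1 +/-, leaving out wild-type replicate 3, Isl1 +/- replicates 2, 4 to 7 or 9, or double heterozygous replicates 3, 5, 6 or 8 gave 0.0510 to 0.105. Both calls held without Nipbl +/- replicate 2, the library whose Nipbl level went against its label. The log2 change of Edn2 was then 1.13 against wild-type (adjusted p = 0.0014) and 1.25 against Isl1 +/- (adjusted p = 9.35e-04). Within sets 2, 5 and 6 the Edn2 difference from wild-type was 0.93, 1.05 and 1.03 for Nipbl +/- and 1.46, 0.81 and 0.67 for double heterozygous hearts, on the log2 scale. The direction was therefore the same in every set that held both groups.

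**Figure D2:**
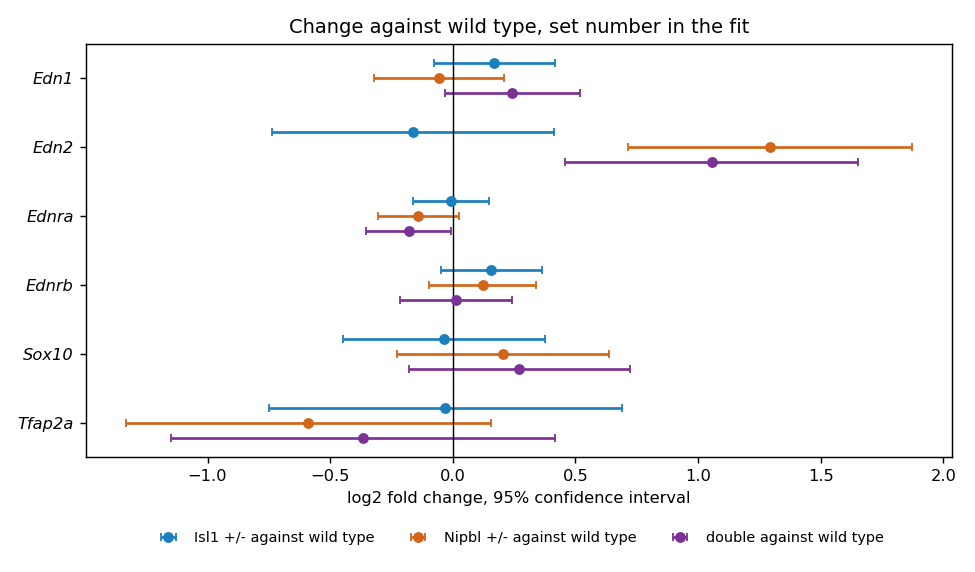
Log2 fold change against wild-type (horizontal axis) of the 5 tested genes and Edn2, with 95% confidence intervals, for Isl1 +/-, Nipbl +/- and double heterozygous hearts. Edn2 at 1.29 and 1.05 lies to the right of 0 with loss of Nipbl, and the interval of Ednra in double heterozygous hearts ends at -0.01.

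The receptor Ednra, on chr8:77663031-77724464 (GRCm38, minus strand), transduces Edn1 signals in arch crest and smooth muscle. It had 674 to 2762 counts per library. Its lowest, median and highest levels were 33.8, 42.5 and 53.0 CPM in wild-type, 36.5, 43.3 and 52.1 CPM in Isl1 +/-, 32.4, 44.9 and 52.7 CPM in Nipbl +/- and 28.6, 44.0 and 48.8 CPM in double heterozygous hearts. The 4 ranges overlapped, and 1 Nipbl +/- and 1 double heterozygous library lay below every wild-type library. The log2 change was -0.01 in Isl1 +/- (adjusted p = 0.989), -0.14 ± 0.08 (SE) in Nipbl +/- (adjusted p = 0.424) and -0.18 ± 0.09 in double heterozygous hearts (adjusted p = 0.403). Averaged over Isl1 genotypes, the Nipbl effect was -0.16 (95% confidence interval -0.28 to -0.03, adjusted p = 0.187). In set 5 the differences from wild-type were 0.05 for Nipbl +/- and 0.01 for double heterozygous hearts, against -0.19 and -0.30 in set 2 and -0.21 and -0.14 in set 6.

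Ednrb, on chr14:103814625-103844402 (GRCm38, minus strand), was the most abundant of the 9 genes, with 978 to 4256 counts per library. Its lowest, median and highest levels were 38.7, 60.6 and 78.8 CPM in wild-type, 45.9, 65.8 and 80.3 CPM in Isl1 +/-, 57.2, 67.8 and 103 CPM in Nipbl +/- and 52.5, 60.2 and 76.5 CPM in double heterozygous hearts. All 9 Nipbl +/- libraries lay above the wild-type mean of 56.4 ± 14.2 CPM, yet the fitted log2 change was only 0.12 ± 0.11 (adjusted p = 0.621), and 0.03 (adjusted p = 0.941) without Nipbl +/- replicate 2. The fit holds the set number, which the plain means do not. The level of Ednrb was 45.4 ± 4.66 CPM (SD, n = 6) in set 1, which held wild-type and Isl1 +/- hearts only, and 62.4 ± 4.19, 65.3 ± 14.9 and 69.1 ± 5.86 CPM in sets 2, 5 and 6. Within sets, Nipbl +/- less wild-type was -0.15 in set 2, 0.55 in set 5 and -0.09 in set 6 on the log2 scale. The change was 0.16 ± 0.10 in Isl1 +/- (adjusted p = 0.848) and 0.01 ± 0.11 in double heterozygous hearts (adjusted p = 0.978), and the interaction was -0.26 (95% confidence interval -0.56 to 0.03, adjusted p = 0.999).

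Levels of 3 of the 5 tested genes differed between the sets. The set term passed the threshold for Ednra (adjusted p = 0.0013), Ednrb (adjusted p = 0.0044) and Sox10 (adjusted p = 0.0215), as it did for 5745 of all tested genes (38.2%). Ednra was lowest in set 2 at 36.2 ± 4.37 CPM and highest in set 6 at 47.2 ± 5.28 CPM among the sets with several libraries. Sox10 was 0.60 ± 0.15 CPM in set 6 and 1.09 ± 0.28 CPM in set 2. Tfap2a (adjusted p = 0.272), Edn1 (adjusted p = 0.532) and Edn2 (adjusted p = 0.237) did not pass.

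Sox10, the factor of migrating crest and of its glial derivatives, is on chr15:79154908-79165240 (GRCm38, minus strand) and had 12 to 65 counts per library. The lowest, median and highest levels were 0.47, 0.85 and 1.23 CPM in wild-type, 0.43, 0.89 and 1.57 CPM in Isl1 +/-, 0.43, 0.95 and 1.61 CPM in Nipbl +/- and 0.69, 1.02 and 1.53 CPM in double heterozygous hearts. Of the double heterozygous libraries, 7 of 9 were above the wild-type mean and 3 above every wild-type library. The log2 change was -0.04 in Isl1 +/- (95% confidence interval -0.45 to 0.38, adjusted p = 0.985), 0.20 in Nipbl +/- (-0.23 to 0.64, adjusted p = 0.682) and 0.27 in double heterozygous hearts (-0.18 to 0.72, adjusted p = 0.716). The changes seen for Edn2 with loss of Nipbl, 1.05 and 1.29, lie outside all 3 intervals.

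Tfap2a, on chr13:40715302-40738376 (GRCm38, minus strand), acts in crest cells and in surface ectoderm. It had 2 to 58 counts per library. Its lowest, median and highest levels were 0.071, 0.44 and 1.51 CPM in wild-type, 0.34, 0.51 and 0.76 CPM in Isl1 +/-, 0.18, 0.32 and 1.12 CPM in Nipbl +/- and 0.11, 0.43 and 0.92 CPM in double heterozygous hearts. Wild-type libraries held both the lowest and the highest value. In Nipbl +/- hearts 8 of 9 libraries lay below the wild-type mean of 0.59 ± 0.44 CPM, and the log2 change was -0.59 ± 0.37 (SE, adjusted p = 0.454). In double heterozygous hearts it was -0.36 ± 0.38 (adjusted p = 0.792), in Isl1 +/- hearts -0.03 ± 0.35 (adjusted p = 0.990), and the averaged Nipbl effect was -0.46 (95% confidence interval -1.03 to 0.10, adjusted p = 0.475). Within sets the sign of the Nipbl +/- difference was mixed, at 0.50 in set 2, -0.67 in set 5 and -1.13 in set 6.

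**Figure D3:**
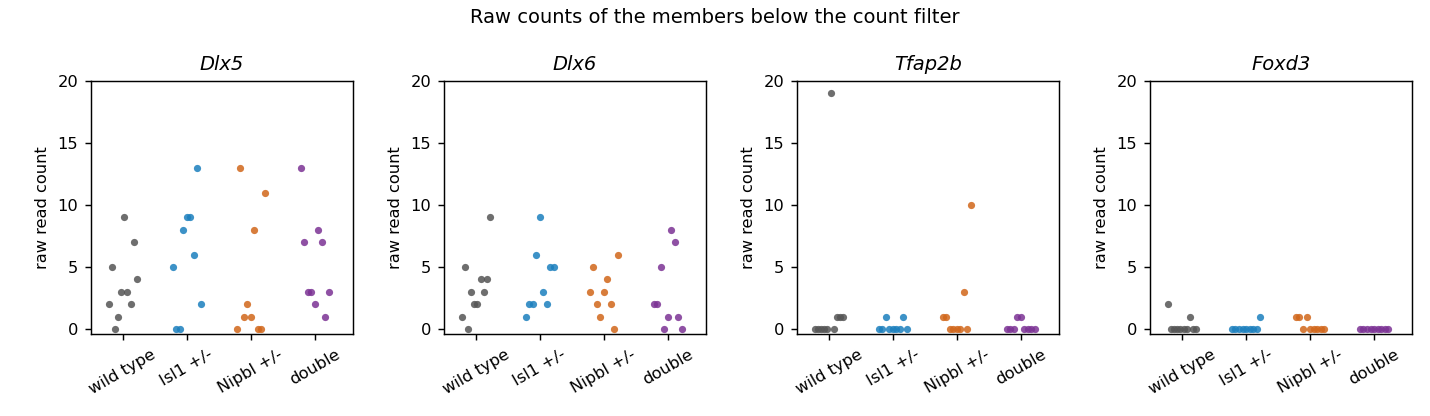
Raw read counts (vertical axes, linear) of Dlx5, Dlx6, Tfap2b and Foxd3 in each library, by genotype; points are libraries. No library exceeds 13 counts for Dlx5, 9 for Dlx6 or 2 for Foxd3, and 19 counts of Tfap2b in a wild-type library stand above all others.

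Dlx5 and Dlx6, neighbouring homeobox genes that Edn1 turns on in the lower jaw, lie 9.237 kb apart on chr6 (Dlx6 at 6863334-6868568 on the plus strand, Dlx5 at 6877805-6882085 on the minus strand, GRCm38). Raw counts of Dlx5 in replicate order were 2, 5, 0, 1, 3, 9, 3, 2, 7 and 4 in wild-type and 5, 0, 0, 8, 9, 9, 6, 13 and 2 in Isl1 +/- hearts. They were 0, 13, 1, 2, 1, 8, 0, 0 and 11 in Nipbl +/- and 13, 7, 3, 3, 2, 8, 7, 1 and 3 in double heterozygous hearts. Summed over each genotype, this was 36, 52, 36 and 47 counts, or 0.112, 0.156, 0.104 and 0.148 CPM. The 95% exact Poisson intervals of 0.079 to 0.155, 0.116 to 0.205, 0.073 to 0.143 and 0.108 to 0.196 CPM all overlap. Over single libraries, Dlx5 counts were 0 to 9 in wild-type, 0 to 13 in Isl1 +/- and in Nipbl +/- and 1 to 13 in double heterozygous hearts, so the ranges overlapped.

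Raw counts of Dlx6 were 1, 5, 0, 3, 2, 2, 4, 3, 4 and 9 in wild-type, 1, 2, 2, 6, 9, 3, 2, 5 and 5 in Isl1 +/-, 3, 5, 2, 1, 3, 4, 2, 0 and 6 in Nipbl +/- and 2, 2, 5, 0, 1, 8, 7, 1 and 0 in double heterozygous hearts. The genotype sums of Dlx6 were 33, 35, 26 and 26 counts, or 0.103, 0.105, 0.075 and 0.082 CPM, with overlapping intervals of 0.071 to 0.144, 0.073 to 0.146, 0.049 to 0.109 and 0.053 to 0.120 CPM. The noncoding gene Dlx6os1 overlaps Dlx6 on the other strand and had 89 counts over all libraries. Since the strand setting of the counting is not given in the sources used here, reads of Dlx6 and Dlx6os1 cannot be told apart.

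Tfap2b, the relative of Tfap2a with a part in closure of the ductus arteriosus, lies on chr1:19208914-19238576 (GRCm38, plus strand). Its raw counts were 0 in 25 of 37 libraries. They were 0, 0, 0, 0, 0, 19, 0, 1, 1 and 1 in wild-type and 1, 1, 0, 0, 0, 0, 3, 0 and 10 in Nipbl +/- hearts, while the Isl1 +/- and double heterozygous libraries held at most 1 count. The genotype sums of 22 and 15 counts in wild-type and Nipbl +/- hearts thus came mainly from wild-type replicate 6 and Nipbl +/- replicate 9. Foxd3, an early crest factor on chr4:99656299-99658622 (GRCm38, plus strand), had 3 counts in wild-type, 1 in Isl1 +/- and 3 in Nipbl +/- hearts. In the 9 double heterozygous libraries Foxd3 had 0 counts, which allows a pooled level of up to 0.0094 CPM (3 counts over the group). Intervals and limits cover counting error only. At this depth no difference of Foxd3 was detectable. In an edgeR fit without the filter, none of 32 tests of these 4 low genes passed, the smallest adjusted p was 0.451, and 2 tests had an unadjusted p under 0.05.

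The 2 libraries highest in Tfap2b were also the highest in Tfap2a, and each was high in some epithelial transcripts. Wild-type replicate 6 had 58 counts of Tfap2a (1.51 CPM) and Nipbl +/- replicate 9 had 43 (1.12 CPM). The summed level of 10 surface ectoderm markers was 34.3 CPM in wild-type replicate 6 and 22.2 CPM in Nipbl +/- replicate 9. Over all libraries the sum ranged from 3.97 to 34.3 CPM in wild-type, 4.65 to 16.3 CPM in Isl1 +/-, 7.23 to 22.2 CPM in Nipbl +/- and 6.21 to 22.7 CPM in double heterozygous hearts. Of the 10 markers, Esrp1 was at 0 counts in 13 libraries, Krt5 in 12, Trp63 in 9 and Cdh1 in 8. The markers that were high differed between these libraries. Wild-type replicate 6 had the highest level of Wnt6, an ectodermal ligand (10.4 CPM), of Cdh1, the epithelial cadherin (4.56 CPM), and of Grhl2 and Esrp1, whereas its Krt14, at 0.68 CPM, lay below the median of 0.99 CPM over all libraries. Nipbl +/- replicate 9 had the highest level of Krt15 (0.94 CPM) and Trp63 (0.55 CPM), whereas its Cdh1, Esrp1 and Epcam, at 1.61, 0.23 and 2.60 CPM, were exceeded in other libraries. The part of ectoderm in the Tfap2a and Tfap2b values was not tested. Without both libraries, an alternative chosen after seeing the data, Tfap2a in Isl1 +/- hearts turned from -0.03 to 0.18.

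Of the 6 surface ectoderm markers tested, 1 rose with loss of Nipbl, beside 1.2% of all genes that rose in Nipbl +/- and 1.77% in double heterozygous hearts. This was Krt14, a keratin of basal epithelium, which rose by a log2 change of 1.51 ± 0.29 (SE) in Nipbl +/- (adjusted p = 0.0033) and 1.74 ± 0.30 in double heterozygous hearts (adjusted p = 6.38e-04) against wild-type. Krt14 was 0.63 ± 0.30 CPM (SD, n = 10) in wild-type and 1.91 ± 0.88 CPM in Nipbl +/- hearts. Krt14 and Edn2 were both higher on average in the libraries labelled Nipbl +/- than in wild-type. Nipbl +/- replicate 2, highest in Edn2, had 0.46 CPM of Krt14. That single library had 72.4 CPM of Nipbl, above the wild-type mean, so it cannot speak for Nipbl +/- hearts. The part of Krt14-expressing cells in the result for Edn2 was not tested. The median change of the 6 markers was -0.19 in Nipbl +/- and 0.36 in double heterozygous hearts, beside 0.01 and -0.00 over all genes tested. Of 8 pharyngeal endoderm markers, 0 passed the filter on low counts, and Shh was at 0 in 32 libraries.

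Among 9 further genes of the endothelin machinery, 8 were tested and Edn2 alone rose, where 1.2% of all genes rose in Nipbl +/- and 1.77% in double heterozygous hearts. It rose in Nipbl +/- hearts (median change of the list -0.10, against 0.01 over all genes tested) and in double heterozygous hearts (median -0.08, against -0.00), and 0 fell. In Isl1 +/- hearts 0 of 8 rose or fell, with a median of 0.04. The third ligand, Edn3, had a median of 8 counts, and its log2 change was 0.03 in Nipbl +/- and -0.08 in double heterozygous hearts. The convertase Ece1 was abundant at 267 ± 32.8 CPM in wild-type and 289 ± 27.1 CPM in double heterozygous hearts, a fitted change of 0.04 (adjusted p = 0.906). The G proteins downstream, Gnaq and Gna11, were at 63.1 ± 8.48 and 107 ± 9.36 CPM in wild-type, with changes of -0.03 and -0.14 in Nipbl +/- hearts. Kel, an endothelin-cleaving enzyme of red cells, was at 16.3 ± 21.1 CPM in wild-type hearts, an SD above its mean.

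Of 14 genes for patterning of the arches, 8 were tested and 1 fell, in double heterozygous hearts, where 0.824% of all genes fell. Pitx1, a homeobox factor of the lower jaw and hindlimb, was 1.02 ± 0.62 CPM in wild-type, 0.61 ± 0.28 CPM in Isl1 +/-, 1.08 ± 0.75 CPM in Nipbl +/- and 0.31 ± 0.15 CPM in double heterozygous hearts. Its raw counts were 17 to 69 in wild-type and 4 to 20 in double heterozygous libraries. Pitx1 fell by 1.47 on the log2 scale in double heterozygous hearts (SE 0.37, adjusted p = 0.0224), and its interaction of -0.98 did not pass (adjusted p = 0.999). The call was lost without wild-type replicate 7 (adjusted p = 0.0513) or double heterozygous replicate 7 (adjusted p = 0.0630), with changes of -1.32 and -1.39, and without set 5 or 6 (adjusted p = 0.443 and 0.160), with changes of -1.53 and -1.15. The median change of the 8 genes was -0.23 in double heterozygous hearts, beside -0.00 over all genes tested. Hand2, a target of Edn1 in the arches and a factor of the right ventricle, was at 178 ± 14.4 CPM in wild-type, with a log2 difference of -0.13 in Nipbl +/- (adjusted p = 0.650) and -0.07 in double heterozygous hearts (adjusted p = 0.895).

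Of 14 further neural crest genes, 10 were tested, and 0 rose or fell in any of the 3 comparisons with wild-type. Their median change was 0.17 in Isl1 +/-, 0.04 in Nipbl +/- and 0.11 in double heterozygous hearts. Sox9, an early crest and cushion factor, was at 38.8 ± 4.65 CPM in wild-type, with a log2 difference of 0.19 in double heterozygous hearts (adjusted p = 0.601). Twist1 was at 48.5 ± 5.90 CPM, with a difference of 0.03 (adjusted p = 0.954). These 2 genes are also expressed by cushion mesenchyme.

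Of 10 genes of crest-derived glia, nerves and pigment cells, 5 were tested and 1 rose, in Nipbl +/- hearts, where 1.2% of all genes rose. Th, the rate-limiting enzyme of catecholamine synthesis, was 1.98 ± 0.50 CPM in wild-type and had a lowest, median and highest level of 2.01, 2.58 and 10.8 CPM in Nipbl +/- hearts. The log2 change of Th was 0.94 ± 0.24 (SE, adjusted p = 0.0322), and 0.59 (adjusted p = 0.0334) without Nipbl +/- replicate 2, which held the highest value. The call of Th was lost without wild-type replicates 4, 5, 7 or 8, or Nipbl +/- replicates 6 or 9, with adjusted p-values of 0.0503 to 0.0879. It was also lost without set 1, 2, 5 or 6, with changes of 0.92, 1.07, 0.61 and 1.05 (adjusted p = 0.117, 0.165, 0.0991 and 0.0841). In double heterozygous hearts Th was 2.04 ± 0.52 CPM, a change of 0.09 (adjusted p = 0.936), and the interaction of -0.78 did not pass (adjusted p = 0.999). Erbb3, a receptor of crest-derived glia, was at 16.5 ± 3.19 CPM in wild-type, with a log2 difference of 0.11 in Nipbl +/- hearts (adjusted p = 0.742).

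Markers of other cells that a dissected heart could hold were counted in the same fit. Of 7 tested arch mesenchyme markers, 0 rose or fell against wild-type, with a median change of 0.90 in Nipbl +/- and -0.09 in double heterozygous hearts. Of 6 tested neuronal markers, 1 rose in Nipbl +/- hearts, the neurofilament gene Nefl, by 0.32 (adjusted p = 0.0286), beside 1.2% of all genes. Of 6 cushion markers, 1 rose in double heterozygous hearts, the receptor Pdgfra, by 0.43 (adjusted p = 0.0483), beside 1.77% of all genes. For the averaged Nipbl effect, where 4.02% of all genes passed, the cushion collagen gene Col1a1 fell by 0.65 on the log2 scale (adjusted p = 0.0045), and the neuronal genes Nefl and Tubb3 rose by 0.25 and 0.49 (adjusted p = 0.0162 and 0.0234). None of 8 cardiomyocyte, 8 endothelial or 5 red cell markers passed in the 3 comparisons with wild-type, and the red cell median was -0.88 in Nipbl +/- and 0.68 in double heterozygous hearts. The part of these cells in the results for Edn2, Th and Pitx1 was not tested.

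Across libraries, 10 pairs of the 5 tested genes were compared after genotype and set were removed, over 36 libraries without that of set 7. The permutations took the 36 values as independent and made no allowance for the terms removed. The p-values of these pairs are therefore likely too small. Sox10 and Ednra varied together, with Pearson's r = 0.55 (permutation test, p = 0.00049, adjusted p = 0.0049) and Spearman's rho = 0.57 (adjusted p = 0.0024). Without the 2 libraries farthest from the median of Sox10, r was 0.58. Sox10 and Edn1 moved in opposite directions, with r = -0.44 (permutation test, p = 0.00719, adjusted p = 0.0359) and rho = -0.41 (adjusted p = 0.0414). Without the 2 farthest libraries it was -0.40, and without Nipbl +/- replicate 2 it was -0.40 and no longer passed (adjusted p = 0.0862). Whether Sox10 and Edn1 pass once the removed terms are allowed for was not tested. Tfap2a and Edn1 had rho = 0.41 (permutation test, adjusted p = 0.0414) but r = 0.33 (adjusted p = 0.164), and without Nipbl +/- replicate 2 rho was 0.39 (adjusted p = 0.107). The relation of Sox10 and Ednra was seen only within genotype and set: on log2 CPM with neither removed, over 37 libraries, r was -0.03 (permutation test, adjusted p = 0.863).

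**Figure D4:**
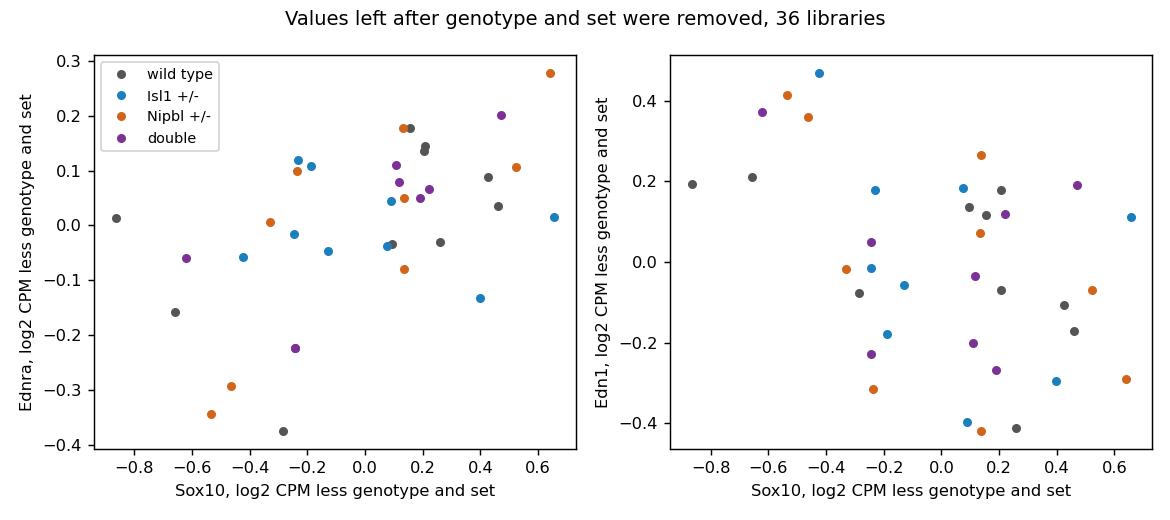
Sox10 (horizontal axes) against Ednra (left) and Edn1 (right) as log2 CPM less the fitted genotype and set, with 36 libraries as points coloured by genotype. Points rise from left to right for Ednra, with r = 0.55, and fall for Edn1, with r = -0.44.

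The genes most like each of the 5 across the same 36 libraries were found among 15045 others by Pearson's r, given as a description. Ednra was most like Abr (r = 0.90), Pygb (0.87) and Lpgat1 (0.86). Ednrb was most like Clic5 (0.82), Klhl3 (0.81) and Jazf1 (0.81), whose Spearman's rho was lower, at 0.59, 0.68 and 0.57. Edn1 was most like Myct1 (0.68), Morf4l2 (0.65) and Rnf139 (0.64). Sox10 was most like Cttnbp2 (0.74), Garnl3 (0.73) and Frem1 (0.72), and Tfap2a most like 3830417A13Rik (0.69), Syt17 (0.66) and Tbx4 (0.66). These values share the libraries and their depth.

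The nearest protein-coding genes on each side of the 9 genes were 16 distinct neighbours, of which 11 were tested. In the 8 comparisons, edgeR called none of these 11 in 88 tests, with 5 tests at an unadjusted p under 0.05, and DESeq2 called none. The neighbours of Edn2 were looked at after its values were seen. Foxo6, a forkhead factor gene 99.7 kb from Edn2, was 3.40 ± 0.76 CPM in wild-type, 4.45 ± 0.85 CPM in Isl1 +/-, 6.03 ± 1.53 CPM in Nipbl +/- and 5.52 ± 0.65 CPM in double heterozygous hearts. It rose by a log2 change of 0.76 ± 0.14 (SE) in Nipbl +/- (adjusted p = 0.0020) and 0.64 ± 0.14 in double heterozygous hearts (adjusted p = 0.0094) against wild-type. With changes of 0.63 to 0.76, the first call of Foxo6 was lost without set 2 (adjusted p = 0.0673) and the second without set 2, 5 or 6 (adjusted p = 0.0957, 0.171 and 0.0570). Hivep3, on the other side of Edn2 at 23.2 kb, had changes of -0.37 (adjusted p = 0.585) and 0.10 (adjusted p = 0.944). The averaged Nipbl effect of Foxo6 was 0.50 ± 0.11 (SE, adjusted p = 0.0036). Whether the changes of Foxo6 and Edn2 differed was not tested. Between double heterozygous and Isl1 +/- hearts, where Edn2 rose, the log2 difference of Foxo6 was 0.25 (adjusted p = 0.854), and in Isl1 +/- against wild-type hearts it was 0.39 (adjusted p = 0.702), beside -0.16 for Edn2.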

How the data were processed

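Hearts of mouse embryos at E10.5 were profiled by bulk RNA sequencing. The authors deposited raw read counts per gene symbol, not normalized. Per the submitters' processing notes, STAR, featureCounts and the builds GRCm38 and mm10 were used; versions, annotation, strand setting and filters are not given in the sources used here. Gene positions and exon lengths came from GENCODE M21 (GRCm38), and promoters from RefSeq.

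Genotype was taken from the titles and set number from the number after IVF in the description, whose meaning is not spelled out. Genes were kept with filterByExpr (minimum count 10, minimum total 15), which left 15046 of 25239 genes, of which 4273 had no count. After TMM scaling, the counts were fitted with edgeR 4.0.16 (limma 3.58.1, R 4.3.3) quasi-likelihood, with genotype and set as factors over all 37 libraries. Tests were two-sided and Benjamini-Hochberg adjusted over all genes, with a threshold of 0.05. Standard errors come from the F statistic. Log2 CPM used a prior count of 2. Relations used 100000 permutations. Floors are 3 counts.

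The 9 genes, the gene lists and the tests were chosen with earlier results of these data known. Named were the 9 genes, list genes past the threshold in a comparison with wild-type or between double heterozygous and Isl1 +/- hearts (up to 6 per list), nearest neighbours, Nipbl, Isl1 and the 3 genes most alike; other genes named from the lists and the neighbours of Edn2 were chosen after their values were seen. Alternatives were no set term, a replicate block, DESeq2 1.42.0, its size factors in edgeR, no filter, 10 counts in every library, and leaving out each set and each library. The fit was tested on simulated data. No pair of libraries of a genotype looked like one library deposited a second time: over 153 pairs, the lowest chi-square divided by its degrees of freedom was 7.19.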

Additional observations from a re-analysis of the deposited data

Results flagged for a closer look

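Of 39 groups of libraries examined for a single library apart from the rest, 7 held one. Chance gives about 1 in 20 for normally distributed values. That rate does not hold for Foxd3 and Tfap2b, which were at 0 counts in most libraries, so the 7 cannot be read as an excess. Tfap2a was at 1.12 CPM in Nipbl +/- replicate 9, above the other Nipbl +/- libraries. Tfap2b was at 0.495 CPM in wild-type replicate 6 and at 0.26 CPM in Nipbl +/- replicate 9, each above the rest of its genotype. Foxd3 was at 0.0606 CPM in wild-type replicate 1 and at 0.0271 CPM in Isl1 +/- replicate 9, which correspond to 2 counts and 1 count. Ednrb was at 103 CPM in Nipbl +/- replicate 2, and Edn2 was at 3.58 CPM in the same library, the one whose Nipbl level goes against its label.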

How the results depend on the processing

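The number of the 5 genes past the threshold was 0 in all 8 comparisons under every alternative and leave-out that was run, of which that with 10 counts in every library left out Tfap2a. Against wild-type, changes near 0 turned sign. In Isl1 +/- hearts, Ednra became 0.015 without the set term, 0.0090 with the replicate block, and 0.028, 0.011 and 0.0032 without sets 1, 2 and 6. Sox10 became 0.055 without the set term, 0.11 with the replicate block, and 0.17 and 0.078 without sets 5 and 6, and Tfap2a became 0.12 without set 6 and 0.18 without the 2 libraries highest in Tfap2b. In Nipbl +/- hearts, Sox10 became -0.016 and Ednrb -0.081 without set 5, and Edn1 became 0.016, 0.0032 and 0.0019 without sets 1, 2 and 5. In double heterozygous hearts, Ednrb became -0.0023 with DESeq2, -0.0023 with its size factors in edgeR, -0.012 without set 1 and -0.11 without set 5. The cause was not tested. Leaving out single libraries gave ranges of -0.18 to 0.21 for Tfap2a, -0.19 to 0.020 for Sox10 and -0.054 to 0.013 for Ednra in Isl1 +/- hearts, and -0.085 to 0.046 for Ednrb in double heterozygous hearts. By Pearson's r, the count of related pairs was 2, but 0 with genotype and set kept in the values, where Sox10 and Ednra had r = -0.032, and 1 without Nipbl +/- replicate 2. The counts of 2 and 1 rest on permutation p-values that make no allowance for the terms removed and are likely too small. No share over all gene pairs was computed to set beside the count of 2.

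For Edn2, the averaged Nipbl effect passed in the 10 alternatives that could test it, at 1.16 to 1.40. These include the one added after seeing the data, and not that with 10 counts in every library, which leaves Edn2 out. The call of Edn2 in double heterozygous against wild-type hearts was lost without any of sets 1, 2, 5 or 6, without the filter (adjusted p = 0.0542) and without the 2 libraries highest in Tfap2b, with adjusted p up to 0.475 and changes of 0.80 to 1.31. Against Isl1 +/- it was lost without sets 1, 2, 5 and 6 (adjusted p = 0.101, 0.580, 0.118 and 0.0750), with the lowest change, 1.00, without set 2. Th lost its call without the 2 libraries highest in Tfap2b (adjusted p = 0.0615) and with the replicate block (0.74, adjusted p = 0.0665). The averaged effect of Foxo6 was 0.46 to 0.61 and did not pass without set 2 or 5 (adjusted p = 0.0840 and 0.0574). Krt14 against wild-type did not pass without set 2, at 1.32 in Nipbl +/- (adjusted p = 0.133) and at 1.5 in double heterozygous hearts (adjusted p = 0.0552). The replicate numbers did not pair libraries: same-numbered libraries had a median correlation of 0.03 over 54 pairs, and 3 of 37 correlated best with their own number. Genes past the threshold among all genes numbered 258 for Nipbl +/- against wild-type (31 without set 2, 467 without the set term), 391 for double heterozygous (67 without set 5, 610 with the replicate block), 144 between double heterozygous and Isl1 +/- (12 without set 5, 234 with DESeq2), 605 for the averaged Nipbl effect (152 without set 2, 1045 without the set term), 26 for the averaged Isl1 effect (0 without the set term, 113 with DESeq2) and 0 for Isl1 +/- (11 with DESeq2). These brackets do not cover leave-outs of a single library. Without Nipbl +/- replicate 2, the counts were 410 for Nipbl +/- and 839 for double heterozygous against wild-type. They were 361 between double heterozygous and Isl1 +/- and 1044 for the averaged Nipbl effect. At 0 to 19 counts, Tfap2b, Foxd3, Dlx5 and Dlx6 limit what can be seen.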
